A study of Mus musculus with 20 samples.

Results

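The genes described here are 10 transcripts of tissue macrophages in mouse soleus, a postural hind-limb muscle rich in slow fibres. They were taken by symbol: Cd163, Lyve1 and Folr2, which mark macrophages settled in tissue, Mrc1 and F13a1, and the general macrophage genes Csf1r, Adgre1, C1qa, C1qb and Cd68. All 10 were found among the 56941 rows of the count table, and all 10 were among the 16778 rows that passed the filter on low counts and were tested. The study compared the soleus of 1 hind limb from C57BL/6J mice in a space group of 10 and a control group of 10. The space group had 14 days of hind-limb unloading, ionizing radiation and a stress hormone (a stress given through the diet, in the series' design text). The control group was sham-irradiated and otherwise kept alike. The 3 exposures were given together and cannot be told apart, and the labels used here state neither age nor sex. The labels give a group size in mice but no other origin of a replicate, so p-values measure the spread between these libraries.

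Macrophages of resting muscle lie in the connective tissue around fibres, vessels and nerves. They depend on signalling through the CSF1 receptor, clear dead cells and debris, and take up free haemoglobin for iron recycling. Long-settled macrophages of many tissues carry the hyaluronan receptor LYVE1, the folate receptor FOLR2 and the haemoglobin scavenger CD163, whereas F4/80 (Adgre1), CD68 and complement C1q are found on tissue macrophages more broadly. In whole muscle, fewer cells of a type and less RNA per cell cannot be told apart. Lyve1 is also made by lymphatic endothelium, so its level here is a sum over more than macrophages.

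The resident markers did not move together. Cd163 was 1.72-fold higher in the space group, whereas Lyve1 and Folr2 stood at nearly the same mean level in both groups. F13a1 and Csf1r rose by 1.38-fold and 1.28-fold, and Mrc1, Adgre1, C1qa, C1qb and Cd68 did not pass the edgeR quasi-likelihood test at a Benjamini-Hochberg adjusted p under 0.05. Over all tested genes 57.6% were called, 28.7% raised and 28.9% lowered. Among the 7136 tested genes with a mean level in the range of the members, 56.5% were called, 28.2% raised and 28.3% lowered. The 3 raised members of 10 are thus near the background share of raised genes. The median log2 fold change was 0.15 for the 10 members and 0.02 for all tested genes. None of the 10 separated the groups completely, which 17.4% of tested genes did.

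The promoters of the members are shown for 2 genes that rose, Cd163 and F13a1, and 2 that did not pass the test, Mrc1 and Cd68, so that the regions in front of them can be compared. The sequences are RefSeq's on build GRCm38.p6, matched by symbol for 6 of the 10 members, and each is the 250 bases before an annotated start, 5′ to 3′. Capitals mark GAGGAA or its reverse complement TTCCTC, the core recognised by the myeloid transcription factor PU.1. The Cd163 window is chr6:124304401-124304650 (plus strand), F13a1 chr13:37050245-37050494 (minus), Mrc1 chr2:14229164-14229413 (plus) and Cd68 chr11:69666171-69666420 (minus).
Cd163: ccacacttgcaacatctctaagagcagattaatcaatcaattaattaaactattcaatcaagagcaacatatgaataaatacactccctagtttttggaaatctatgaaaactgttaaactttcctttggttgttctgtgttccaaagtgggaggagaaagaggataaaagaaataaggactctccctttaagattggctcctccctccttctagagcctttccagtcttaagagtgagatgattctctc
F13a1: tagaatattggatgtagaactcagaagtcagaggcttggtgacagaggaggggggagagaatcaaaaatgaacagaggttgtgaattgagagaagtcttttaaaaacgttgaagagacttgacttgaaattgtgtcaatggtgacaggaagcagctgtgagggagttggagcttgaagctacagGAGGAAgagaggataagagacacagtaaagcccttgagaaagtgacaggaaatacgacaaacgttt
Mrc1: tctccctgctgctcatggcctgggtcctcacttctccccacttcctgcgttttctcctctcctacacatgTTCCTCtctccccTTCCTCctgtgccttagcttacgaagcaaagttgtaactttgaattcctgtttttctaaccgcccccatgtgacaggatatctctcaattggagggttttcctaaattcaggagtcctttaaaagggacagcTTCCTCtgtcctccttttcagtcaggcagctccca
Cd68: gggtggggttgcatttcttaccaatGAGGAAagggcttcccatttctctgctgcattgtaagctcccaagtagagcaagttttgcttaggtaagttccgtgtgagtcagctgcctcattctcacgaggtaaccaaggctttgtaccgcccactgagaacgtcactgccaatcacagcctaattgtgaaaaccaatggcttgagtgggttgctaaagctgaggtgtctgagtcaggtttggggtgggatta
The Mrc1 window held 3 matches, which began 180, 167 and 35 bases before the start. The F13a1 window shown held 1 at 66 bases, while that of its other annotated start held none, and the Cd68 window held 1 at 225 bases. The Cd163 window held no match. Over the 8 windows of the 6 matched members, 4 held this core, against 23.3% of 32851 windows of the same length in the table. C1qb had a match 30 bases before its start. Matches of TGANTCA (AP-1) were found in 2 of the 8 windows, those of Cd68 (149 and 24 bases before the start) and Folr2 (74 bases), and in 6.75% of all windows. TGCTGA, part of the MAF recognition element, was found in 3 of 8 windows and 16.1% of all. These were the windows of both annotated starts of Folr2 and that of C1qb, so they are not separate members. TATAAA was found in none of the 8 and 12.4% of all. All motifs were searched on both strands, and a match is a description of letters only. Lyve1, Csf1r, Adgre1 and C1qa had no entry in the table.

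Cd163 encodes the receptor that takes up haptoglobin-bound haemoglobin. Its level in the control libraries ran from 4.13 to 10.4 CPM (counts per 1e6 reads of the library, scaled by TMM) with a median of 8.46, and in the space libraries from 9.75 to 23.7 CPM with a median of 12.0. Every space library lay above the control mean and 8 of 10 lay above the highest control, so the ranges overlapped by a narrow margin. The means were 8.20 ± 1.80 and 14.0 ± 4.61 CPM (SD, n = 10 each), an edgeR log2 fold change of 0.78 (adjusted p = 0.000748). The difference of mean log2 CPM, a slightly different estimate, was 0.75 ± 0.181 SE. For the other members the SE printed beside an edgeR log2 fold change is likewise that of the difference of mean log2 CPM. The spread was wider in the space group, where replicates 4, 6 and 5 were highest at 23.7, 19.2 and 17.1 CPM. The lowest control, replicate 3, stood at 4.13 CPM and was also the lowest control for Lyve1, Csf1r, C1qa and C1qb.

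Lyve1 encodes a hyaluronan receptor of resident macrophages and lymphatic vessels. Control libraries held 3.92 to 9.97 CPM (median 7.13) and space libraries 5.57 to 10.5 CPM (median 7.08). Most libraries of both groups lay in a shared range, with 5 of 10 space libraries above the control mean. The log2 fold change was 0.03 ± 0.162 SE (edgeR adjusted p = 0.865), an error that leaves room for a modest change in either direction.

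Folr2 encodes the folate receptor beta, a marker of perivascular resident macrophages. It was the member with the fewest reads, 15 to 78 counts a library, so its values are the least precise. Controls held 0.983 to 1.91 CPM (median 1.31) and space libraries 0.526 to 2.07 CPM (median 1.49). Both the lowest and the highest value belonged to the space group, whose 2 lowest libraries, replicates 9 and 7, lay below all controls. The log2 fold change was 0.06 ± 0.217 SE (edgeR adjusted p = 0.82). Exons of Folr2 overlap those of the predicted gene Gm10602 on the opposite strand, which held 2.76 CPM in controls and 3.09 in the space group. Whether reads were counted by strand is not stated, so the Folr2 value is uncertain, as is that of Csf1r, whose exons overlap Hmgxb3 (24.9 and 23.7 CPM).

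**Figure D1:**
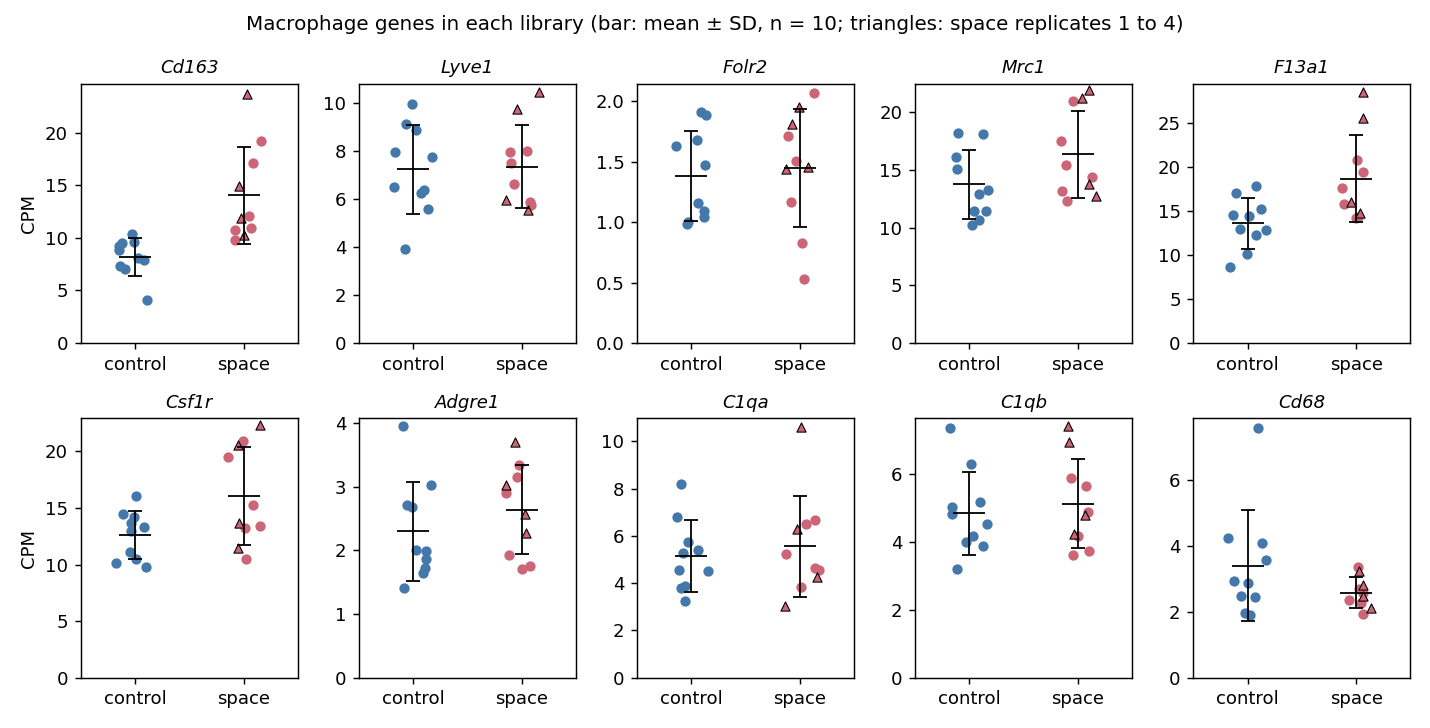
Level of each of the 10 macrophage genes in CPM (vertical axes, from 0) in the 10 control (blue) and 10 space (red) libraries; points are libraries, triangles space replicates 1 to 4, bars mean ± SD. Cd163 shows 8 of 10 space libraries above the highest control at 10.4 CPM, whereas the groups overlap for most libraries of Lyve1 and Folr2, and control replicate 9 stands apart for Cd68 at 7.58 CPM.

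Mrc1 encodes the mannose receptor CD206, an endocytic receptor abundant on muscle macrophages, and F13a1 the A chain of coagulation factor XIII, a transglutaminase found in resident macrophages. Mrc1 ran from 10.2 to 18.2 CPM in controls (median 13.1) and from 12.3 to 21.9 CPM in the space group (median 14.9). Its upper end was higher, with 3 space libraries above all controls, but the log2 fold change of 0.25 ± 0.141 SE fell short of the threshold (edgeR adjusted p = 0.122). F13a1 ran from 8.64 to 17.9 CPM in controls (median 13.7) and from 14.2 to 28.5 CPM in the space group (median 16.8). All 10 space libraries lay above the control mean of 13.6 CPM, and 4 lay above the highest control. The log2 fold change of F13a1 was 0.47 ± 0.150 SE (edgeR adjusted p = 0.0102).

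Csf1r encodes the receptor for CSF1 and IL34, the growth factors that macrophages need to survive. Controls held 9.79 to 16.1 CPM (median 13.1) and space libraries 10.5 to 22.3 CPM (median 14.5). The space group was split, with replicates 1, 5, 4 and 6 between 19.5 and 22.3 CPM, above every control, and the other 6 libraries inside the control range. The log2 fold change was 0.35 ± 0.146 SE (edgeR adjusted p = 0.0357). This call was lost when any of 8 libraries was left out: control replicates 2, 3, 5 or 10, or space replicates 1, 4, 5 or 6 (adjusted p between 0.0594 and 0.0769).

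Adgre1, which encodes the adhesion receptor F4/80, stood at 1.41 to 3.95 CPM in controls and 1.71 to 3.70 CPM in the space group (log2 fold change 0.19 ± 0.187 SE, edgeR adjusted p = 0.371). C1qa and C1qb encode chains of C1q, the recognition unit of classical complement that also tags dying cells for uptake. C1qa held 3.26 to 8.22 CPM in controls and 3.03 to 10.6 CPM in the space group, and C1qb 3.21 to 7.38 and 3.61 to 7.44 CPM. For all 3 genes the groups lay over each other. Neither chain passed the test (log2 fold changes 0.11 ± 0.203 and 0.09 ± 0.157 SE, edgeR adjusted p = 0.649 and 0.643), nor did C1qc, the partner chain, at 6.22 ± 1.66 against 7.28 ± 1.37 CPM (edgeR adjusted p = 0.172).

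Cd68, a glycoprotein of macrophage lysosomes, was the member with a lower mean in the space group. Controls held 1.91 to 7.58 CPM (median 2.89) and space libraries 1.93 to 3.35 CPM (median 2.53). The mean of the controls, 3.40 ± 1.68 CPM, was drawn up by replicate 9 at 7.58 CPM, and the next highest control stood at 4.24 CPM. The edgeR log2 fold change was -0.36 (adjusted p = 0.125) and -0.175 without control replicate 9 (adjusted p = 0.329). The difference of mean log2 CPM over all libraries was -0.29 ± 0.202 SE. That library was also the shallowest, at 17336017 counts, and had the lowest share of mitochondrial counts among controls, 5.88% against 8.00% to 9.57%. The part of these in its Cd68 level was not tested.

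**Figure D2:**
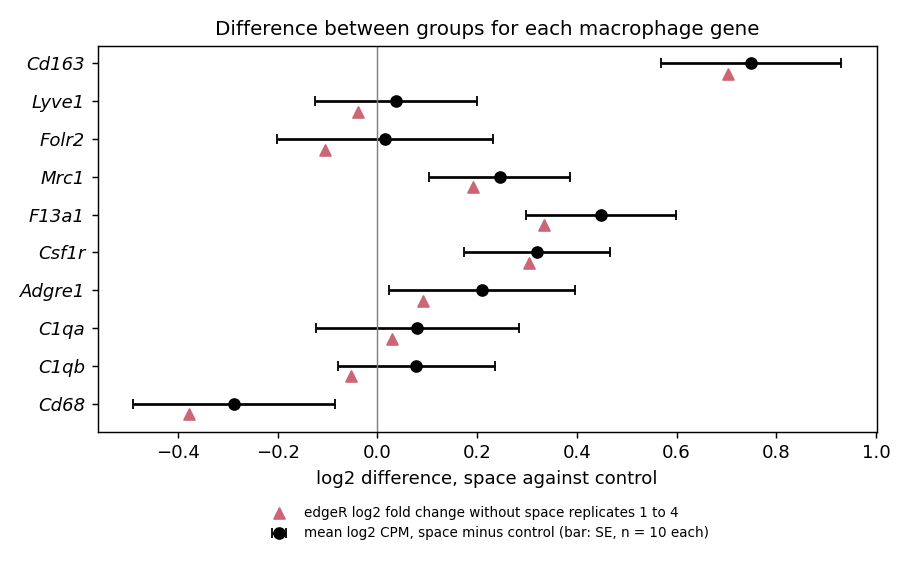
Difference of mean log2 CPM between the space and control groups for each member (black points, bars SE, n = 10 each) on a log2 axis, with the edgeR log2 fold change without space replicates 1 to 4 (triangles). Cd163 lies farthest from 0 in both, at 0.75 and 0.70, while Lyve1, Folr2, C1qa and C1qb lie within 1 SE of 0 in the black points.

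The question of resident against general markers was put within each library, as the mean log2 CPM of Cd163, Lyve1 and Folr2 minus that of Csf1r, Adgre1, C1qa, C1qb and Cd68. A change shared equally by all 8 genes cancels in this difference. It was -0.11 ± 0.132 in controls and 0.08 ± 0.191 in the space group (log2 units, SD, n = 10 each), with ranges of -0.36 to 0.09 and -0.15 to 0.36. The groups overlapped, and 4 of 10 space libraries lay above the highest control. Without Cd163 the difference between the groups went from 0.19 to -0.05 log2 units, so the shift of the resident score rested on Cd163. No p is given for these scores because they are built from the members.

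Taken by itself, Cd163 stood 0.79 ± 0.230 log2 units above the general markers in controls and 1.46 ± 0.272 above them in the space group. In this ratio 9 of 10 space libraries lay above the highest control, at 1.22, and the remaining library, replicate 1, stood at 1.02. Space replicates 5 to 10 ran from 1.28 to 1.71. Lyve1 stood 0.60 ± 0.225 and 0.56 ± 0.202 above the general markers, and Folr2 1.73 ± 0.291 and 1.79 ± 0.449 below them, with no shift beyond the spread in either. F13a1 moved from 1.52 ± 0.169 to 1.89 ± 0.145 above the general markers, with 8 of 10 space libraries above all controls. Csf1r against the other 4 general markers moved from 1.79 ± 0.148 to 2.09 ± 0.164, with 7 of 10 above all controls. Among the general markers themselves, C1qa and C1qb shifted by 0.000391 and -0.00254 log2 units, and Cd68 went from -0.68 ± 0.614 to -1.14 ± 0.206. Without control replicate 9 the Cd68 mean in controls was -0.85 ± 0.302, so that the shift went from -0.46 to -0.29.

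**Figure D3:**
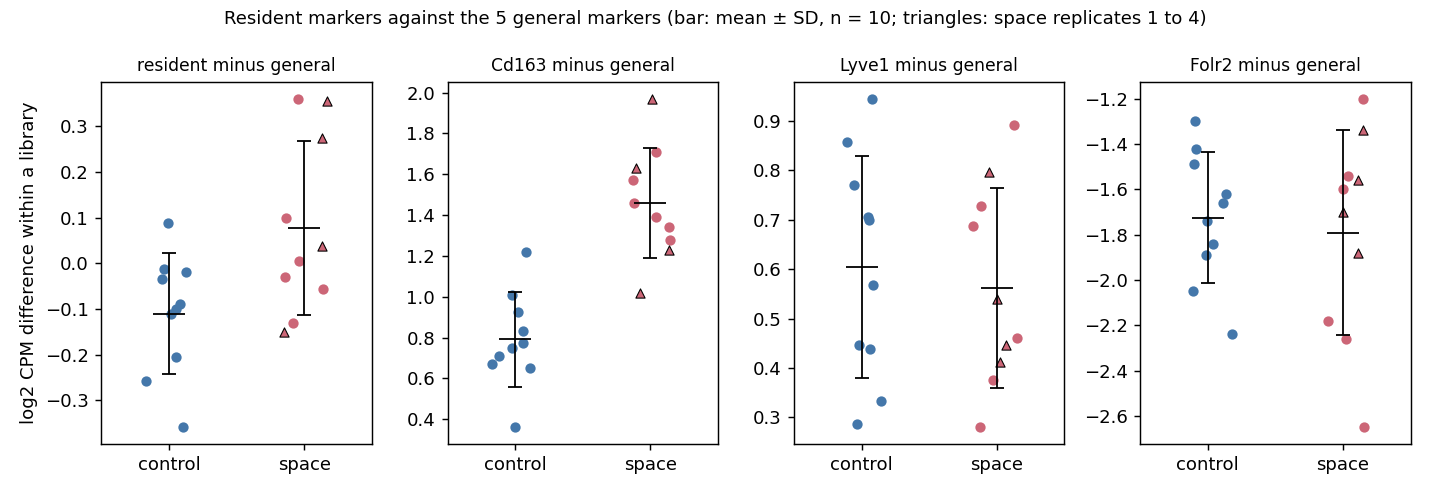
Within-library difference of log2 CPM between resident and general markers in control (blue) and space (red) libraries; points are libraries, triangles space replicates 1 to 4, bars mean ± SD, and each panel has its own vertical scale. In the Cd163 panel 9 of 10 space libraries lie above the highest control at 1.22, while the groups overlap for most libraries in the Lyve1 and Folr2 panels, with 1 space library above (-1.20) and 2 below (-2.26 and -2.65) every control for Folr2.

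Levels were compared between genes per kilobase of exon (GENCODE M21 models). In controls the C1q chains were highest, C1qa at 4.95 ± 1.45 and C1qb at 4.46 ± 1.13 CPM per kilobase (SD, n = 10), which do not differ beyond their spread. Cd68, Lyve1, Csf1r, Mrc1 and F13a1 followed, from 2.71 down to 2.02, each within the spread of its neighbour. Cd163 came next at 1.5 ± 0.329, and Folr2 and Adgre1 were lowest at 0.896 ± 0.242 and 0.711 ± 0.241. In the space group Cd163 stood at 2.57 ± 0.844 CPM per kilobase, among Csf1r (2.79), F13a1 (2.77), Mrc1 (2.56) and Lyve1 (2.52), and these 5 did not differ beyond their spread. Cd68 stood at 2.06 ± 0.366, within the spread of Lyve1 and Mrc1, and its control level of 2.71 ± 1.33 was 2.33 ± 0.683 without control replicate 9.

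Levels of the members varied together from library to library. Over the 45 pairs of members the median Pearson correlation of log2 CPM was 0.68 among the 10 controls (lowest -0.13) and 0.77 among the 10 space libraries (lowest 0.45). These values describe genes that share a library and its depth. In the space group Csf1r, F13a1 and Mrc1 were the most tightly tied to the rest, with median correlations of 0.90, 0.88 and 0.87, and Folr2 the least, at 0.56. The median for Cd68 was 0.32 in controls and 0.73 in the space group, but the control value rests on replicate 9 and was 0.66 without it, with a lowest correlation over the 45 control pairs of 0.35. Among 11873 other genes, those whose levels, centred on the group mean over 20 libraries, were most like the mean of the 5 general markers were Lyz2 (r = 0.93), C1qc (0.89), Laptm5 (0.88), Ccl6 (0.84) and Dse (0.83). Those most like the mean of the 3 resident markers were Tgfbi (0.86), C1qc (0.84), Islr (0.82), Ncf1 (0.81) and Ccl6 (0.78).

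Read totals ran from 17336017 to 43424464 a library. Space replicates 1 to 4 held far more nerve transcripts than the others: the summed level of 12 Schwann cell and myelin genes was 546 to 1550 CPM in them, 111 to 200 CPM in space replicates 5 to 10 and 119 to 218 CPM in controls. The summed level of the 10 members was 124, 73.9, 71.0 and 123 CPM in space replicates 1 to 4, 66.2 to 108 CPM in replicates 5 to 10 and 49.9 to 95.5 CPM in controls. Without space replicates 1 to 4 the rise of Cd163 was 1.63-fold (edgeR adjusted p = 0.00391). F13a1 and Csf1r were then 1.26-fold and 1.23-fold higher and did not pass the test (adjusted p = 0.0516 and 0.0876), so that 1 member was raised, where 51.3% of all tested genes were called, 25.2% raised and 26.1% lowered.

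The gene lists from here on were chosen with earlier results of these data known, so their counts are descriptions. Other genes of settled macrophages were read from a list of 21. Of the 16 that could be tested, 8 were raised, against 28.7% of all tested genes, and 8 did not pass the test (median log2 fold change 0.43). Under upper-quartile factors or library size alone 10 were raised. Of all 16778 tested genes, 5840 and 5946 were raised in these settings, against 4813 in the main one. Clec10a, the galactose-type lectin CD301 of macrophages and dendritic cells, rose from 1.34 ± 0.365 to 2.78 ± 0.967 CPM (2.09-fold, edgeR adjusted p = 3.47e-05), with 9 of 10 space libraries above every control. Maf, a transcription factor of resident macrophages that muscle fibres also make, was 4.15-fold higher. Gas6, a bridging ligand for the uptake of dying cells, and Selenop, a secreted selenium carrier, were 1.52-fold and 1.42-fold higher, and both are made by many cell types. For these 3 genes all 10 space libraries lay above all controls (edgeR adjusted p = 8.29e-14, 2.48e-11 and 4.02e-08). They were named for the smallest p in the list, and 17.4% of all tested genes separated the groups completely in either direction. Cd5l, a secreted protein of some tissue macrophages, had no count in 19 of 20 libraries. Without space replicates 1 to 4, 6 of the list were raised, against 25.2% of all genes tested in that setting.

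Of 18 tested general myeloid genes, 4 were raised and 2 lowered, both below the shares over all tested genes (median log2 fold change 0.32). Laptm5, a lysosomal membrane protein of blood-derived cells, rose 1.43-fold from 3.84 ± 0.598 CPM (edgeR adjusted p = 0.00168), the transcription factor Irf8 1.44-fold (0.00138) and lysozyme, Lyz2, 1.37-fold (0.0223). The endotoxin receptor Tlr4, which fibres and endothelium also make, fell 1.55-fold from 34.1 ± 4.01 CPM (edgeR adjusted p = 1.14e-05). Cx3cr1, the fractalkine receptor of monocytes and some macrophages, fell from 1.09 ± 0.372 to 0.536 ± 0.195 CPM (2.01-fold, edgeR adjusted p = 0.000342), with no space library above the control mean; it was named after its value was seen. The number raised in this list depended on the scaling, with 7 under DESeq2 size factors and 10 under upper-quartile factors, library size alone or the DESeq2 test. It was 10 without control replicate 6, which was high in macrophage genes, 7 without control replicate 7 or space replicates 9 or 10, and 8 without space replicate 7. Scaling by library size alone moved the median of all tested genes by 0.08 log2 units and the split of called genes from 49.8% to 61.3% raised. The background share of raised genes moved too. Of all 16778 tested genes, 4813 were raised in the main setting and 4978 under DESeq2 size factors. Upper-quartile factors gave 5840, library size alone 5946 and the DESeq2 test 5055.

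On the ligand side of the CSF1 receptor, the Csf1 level was 15.2 ± 4.28 CPM in controls against 15.1 ± 2.69 CPM in the space group (edgeR adjusted p = 0.965), and this gene too was named after its value was seen. Il34, the other ligand, was 1.27-fold higher (edgeR adjusted p = 0.00901), but 1.10-fold without space replicates 1 to 4 (adjusted p = 0.218); it was named in the same way. Of 9 tested genes of this axis and its neighbours, 5 were raised and 1 lowered, against 28.7% and 28.9% of all tested genes. Without those 4 libraries 3 were raised, against 25.2% of all tested genes. Csf2rb, the shared receptor chain for GM-CSF, was 1.54-fold higher (edgeR adjusted p = 0.00179; 0.0786 without space replicates 1 to 4). The TGF-beta receptors Tgfbr1 and Tgfbr2 rose from 39.5 to 59.3 and from 53.4 to 66.9 CPM (edgeR adjusted p = 9.89e-10 and 0.00142), and their ligand Tgfb1 was the lowered gene, 1.38-fold, from 8.30 ± 1.13 CPM (edgeR adjusted p = 3.53e-05).

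Of 15 tested genes of a complement list, which holds C1qc but not C1qa or C1qb, 8 were raised, against 28.7% of all tested genes, and the other 7, C1qc among them, did not pass the test. Cfp, the stabiliser of the alternative pathway known as properdin, rose from 2.72 ± 0.430 to 4.06 ± 0.448 CPM (1.49-fold, edgeR adjusted p = 1.24e-05), and the brakes Cd46 and Cd55 rose 1.44-fold and 1.41-fold (2.43e-06 and 0.00127). C3, the central component, was 1.84-fold higher (edgeR adjusted p = 0.00306) and 1.54-fold higher without space replicates 1 to 4. The number raised was 5 without those 4 libraries, against 25.2% of all genes tested in that setting. Of the list, 3 genes also stand among the general myeloid genes.

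Of 11 tested genes of haem and iron handling, 3 were raised and 4 lowered, shares close to the 28.7% and 28.9% of all tested genes. Hmox1, the haem-degrading enzyme haem oxygenase, rose from 5.23 ± 1.95 to 14.1 ± 4.27 CPM (2.72-fold, edgeR adjusted p = 1.76e-05), with 8 of 10 space libraries above all controls. Slc40a1, the iron exporter ferroportin, rose from 9.46 ± 1.10 to 18.6 ± 2.14 CPM (1.96-fold, edgeR adjusted p = 4.08e-11), and no space library overlapped a control. Such separation was seen for 17.4% of all tested genes, and Slc40a1 was named for its small p. The transferrin receptor Tfrc fell 4.86-fold, to 35.1 ± 4.87 CPM, and the ferritin heavy chain Fth1 fell 1.31-fold (edgeR adjusted p = 1.54e-09 and 3.04e-07). Hp, the haptoglobin that CD163 binds with its cargo, was also raised, from 6.41 to 25.6 CPM on average, but not without space replicates 1 to 4 (edgeR adjusted p = 0.208), and was named after its value was seen. Under library size alone or upper-quartile factors 2 were lowered. Of all 16778 tested genes, 3756 and 4095 were lowered in these settings, against 4850 in the main one. Without space replicates 1 to 4 Hmox1 and Slc40a1 were 3.05-fold and 1.97-fold higher. Hmox1, Slc40a1, Tfrc and Fth1 are active in many cells, muscle fibres among them. Hp averaged 46.9 CPM in space replicates 1 to 4 and 11.3 CPM in replicates 5 to 10, and which cells made it was not tested.

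**Figure D4:**
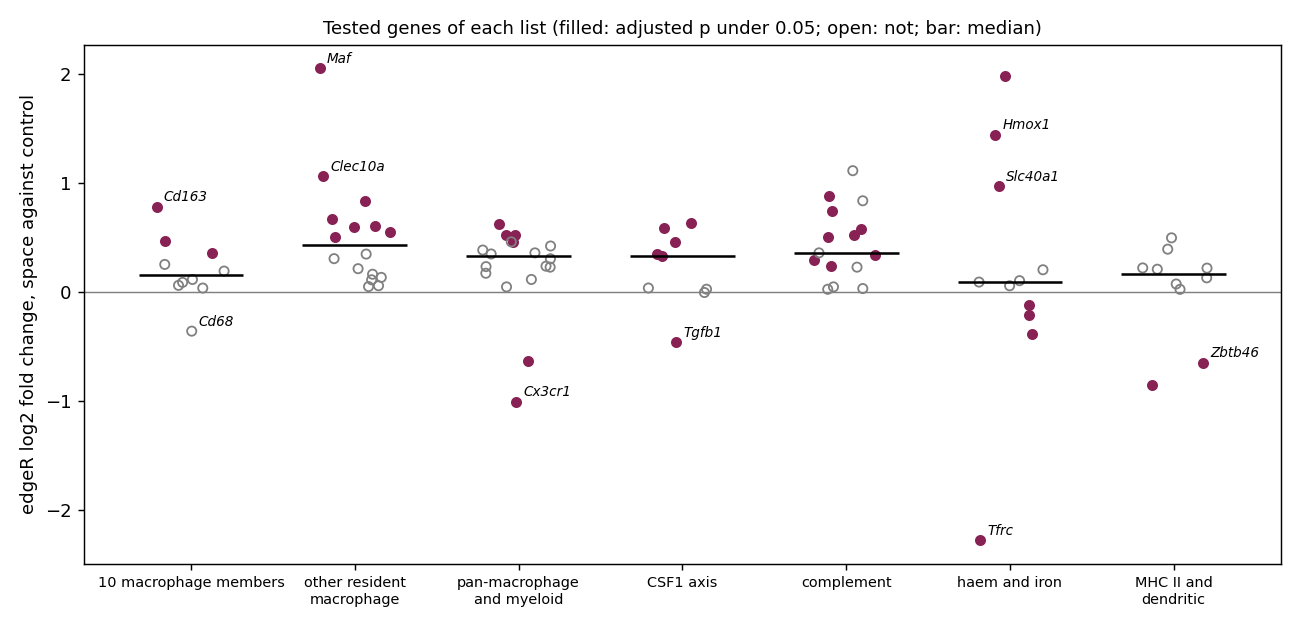
edgeR log2 fold change (vertical axis, space against control) of each tested gene of the 10 members and of 6 related lists; filled points passed the test at an adjusted p under 0.05, open points did not, and bars are list medians. Members lie between -0.36 and 0.78, with Cd163 highest, and in the haem and iron list Hmox1 lies at 1.44, Slc40a1 at 0.97 and Tfrc at -2.28.

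Markers of other cells that could add to these signals were read in the same libraries, and their part in the members' results was not tested unless a value is given. Over all tested genes, the shares beside which these lists are read were 28.7% raised and 28.9% lowered. Of 10 tested genes of antigen presentation and dendritic cells, 2 fell and the remaining 8 missed the threshold, although 2 were raised without space replicate 10 and 1 without replicate 3. Zbtb46, a dendritic and endothelial transcription factor, was 1.57-fold lower (edgeR adjusted p = 2.41e-06), while the class II genes Cd74 (16.4 and 19.0 CPM in controls and the space group) and H2-Ab1 (5.75 and 6.72 CPM) missed the threshold (edgeR adjusted p = 0.183 and 0.241). Monocyte and inflammatory genes were sparse, with 5 of 14 tested. The monocyte gene Ly6c2 held at most 9 counts in a library. Ccr2, the receptor that brings monocytes into tissue, stood at 3.49 ± 0.896 and 4.38 ± 1.10 CPM (edgeR adjusted p = 0.0746). It passed the test under 7 of 32 alternatives, among them leaving out control replicates 2 or 6 or space replicate 3. Nos2 was 1.64-fold higher and Vcan, which stromal cells also make, 1.90-fold lower (edgeR adjusted p = 1.26e-05 and 0.000179).

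For lymphocytes the 12 markers summed to 0.47 to 1.03 CPM in controls and 0.42 to 0.678 CPM in the space group, and no marker reached the filter. Of 10 neutrophil genes, Csf3r alone was tested and was 2.26-fold higher (edgeR adjusted p = 0.0155), and Ly6g had no count in 19 libraries. Without space replicates 1 to 4, 2 were raised, since S100a9 then reached the filter and was 2.97-fold higher (edgeR adjusted p = 0.0215). Of all genes tested in that setting, 25.2% were raised. The list summed to 0.469 to 4.04 CPM in controls and 1.26 to 10.2 CPM in the space group. Of 6 tested mast cell genes, 2 were raised, against 28.7% of all tested genes. They were Kit, which other cells also make, 3.55-fold, and Hdc, the histamine-forming enzyme, from 0.217 to 0.391 CPM (1.75-fold, edgeR adjusted p = 0.0398). Hdc was named after its value was seen. The count was 1 without control replicate 2, 3, 4, 5, 8, 9 or 10 or space replicate 1, 3, 4, 5, 8 or 10. The proteases Mcpt4 and Tpsb2 did not pass (edgeR adjusted p = 0.273 and 0.675). Of 8 genes of macrophages in repair or lipid uptake, 2 were raised and 3 lowered, against 28.7% and 28.9% of all tested genes. Apoe was 1.73-fold and Cd9 1.47-fold higher, and Lpl and Fabp5, both also genes of muscle and fat, were 1.96-fold and 1.52-fold lower. Without space replicates 1 to 4, Cd9 did not pass the test (adjusted p = 0.364).

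Lymphatic endothelium bears on Lyve1. Of 7 lymphatic markers, 2 fell, against 28.9% of all tested genes, and 5 missed the threshold. Without space replicates 1 to 4, 3 fell, against 26.1% of all genes tested in that setting. The added gene was Reln (edgeR adjusted p = 3.55e-05), named after its value was seen. Reln averaged 25.7 CPM in controls, 38.0 CPM in space replicates 1 to 4 and 13.6 CPM in replicates 5 to 10. Prox1, a lymphatic regulator that slow muscle fibres also make, fell 2.60-fold from 73.6 ± 7.85 CPM, and Flt4, the receptor VEGFR3, fell 1.23-fold from 12.3 ± 1.31 CPM (edgeR adjusted p = 2.02e-10 and 0.000425). Ccl21a stood at 1.98 ± 0.548 and 1.47 ± 0.541 CPM and Sema3d at 2.58 ± 0.598 and 3.01 ± 1.13 CPM (edgeR adjusted p = 0.0916 and 0.293). How much of the Lyve1 signal comes from these vessels was not tested. Of 10 blood endothelial markers, 2 were raised and 3 lowered (5 without space replicate 1), with Kdr 1.76-fold lower. Of 10 fibroblast markers 2 were raised and 3 lowered, with Col15a1 2.22-fold lower. In this list 5 were lowered without space replicate 1 or 4. Without replicates 1 to 4, 6 were lowered, against 26.1% of all genes tested in that setting. The blood endothelial and fibroblast counts over all 20 libraries are near the shares of all tested genes, 28.7% raised and 28.9% lowered. All 6 tendon genes were lowered, among them Scx, 3.18-fold. As a check of the tissue, muscle fibre genes such as Acta1 and Ckm were abundant in every library, with 10 of them summing to between 49400 and 65800 CPM.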

How the data were processed

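Whole soleus RNA was extracted in TriZol, and ribosomal RNA-depleted, paired-end libraries were made from 90 ng, per the labels' protocols. The authors deposited 1 table of raw counts per Ensembl gene with no normalization. The submitters' processing notes name MultiQC 1.15, Subread, featureCounts 1.5.1, edgeR and GRCm39; they give no strand setting, annotation release or treatment of shared reads. Library codes were matched to sample descriptions. Symbols and exon lengths came from GENCODE M21 (GRCm38) by Ensembl identifier for 51948 of 56941 rows, holding 97.62% of counts.

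The count model was edgeR 4.0.16 under R 4.3.3: filterByExpr (minimum count 10, minimum total 15), TMM, robust quasi-likelihood tests over all 20 libraries, and Benjamini-Hochberg adjustment over 16778 genes. Log2 CPM uses a prior count of 2. On simulated data (16629 genes), the test recovered 46% of 50 genes changed 1.25-fold, 79.6% of 49 changed 1.5-fold and 92% of 50 changed 2-fold. Of 161 calls, 7 were false. Few genes were changed in the simulation, whereas 57.6% were called in these data. The adjusted threshold therefore differs, and the recovery rates cannot be carried over to the members. Members and 17 other lists were chosen with earlier results of these data known. Named genes are the members, up to 4 genes per list by smallest p at a mean of at least 1 CPM, and markers near 0. Genes most like the marker means were named too. Cx3cr1, Csf1, Il34, Hp, Hdc and Reln were named after their values were seen. Alternatives included DESeq2 1.42.0 and limma 3.58.1.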

Additional observations from a re-analysis of the deposited data

Results flagged for a closer look

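Each member's log2 CPM and the resident minus general difference were screened for a library that stands apart from its group, 22 groups of 10 libraries in all, of which chance flags about 1 in 20. In 1 of them, Cd163 in control replicate 3, the gap between the lowest library and the next was 0.568 of the whole range, above Dixon's critical value for 10 libraries. That library held 4.13 CPM of Cd163. It was also lowest among controls for Lyve1 (3.92 CPM), Csf1r (9.79 CPM), C1qa (3.26 CPM) and C1qb (3.21 CPM), and the members summed to 49.9 CPM there, the lowest of the 20 libraries.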

How the results depend on the processing

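Cd163 was raised under all 32 alternatives (log2 fold change 0.66 to 0.87, adjusted p between 5.51e-06 and 0.00557). F13a1 lost its call under 3 and Csf1r under 12, and no other member gained one. Over the members and the genes named by smallest p, 2167 of 2205 values kept their side of the threshold, 28 lost the call and 10 gained it. Genes named by likeness or after their values were seen, such as Il34, Hp and Hdc, are not in this count. No called value changed sign, but 12 uncalled ones did, for Lyve1 (5), Folr2 (4), C1qa, C1qb and H2-DMa (1 each). With a fold threshold of 1.2, 2380 genes were raised and 2484 lowered, against 4813 and 4850, and 1 member was raised against 3. An adjusted p under 0.01 and leaving out space replicates 1 to 4 also left 1 member raised. Leaving out 1 library at a time gave 4631 to 4811 raised and 4750 to 4868 lowered genes, 2 to 3 raised and 0 lowered members, 47 to 61 raised and 31 to 37 lowered list genes against 52 and 33, and a resident minus general shift of 0.155 to 0.212 against 0.187. That shift was -0.0542 without Cd163 among the resident markers, 0.302 without Lyve1 and 0.313 without Folr2. The Cd68 values without control replicate 9 were chosen after seeing the data.

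The labels give both groups the same sample numbers, but nothing ties them to shared animals or days. Deviations of same-numbered libraries correlated between -0.132 and 0.098, and none matched its own number best. With the number as a block, 4654 genes were raised and 4816 lowered, and 3 members were raised. Depth limits Folr2 and Adgre1 most, at 15 to 78 and 24 to 148 counts a library.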
